A study of Mus musculus with 12 samples.

Results

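The genes of the complement system were followed in mouse liver: 32 genes for complement components, their regulators and their receptors, taken as a list of names. Each gene was represented by its brightest probe set, the one with the highest mean over the 12 arrays. Of the 32 genes, 28 were tested among 13598 genes in all, and each of the 28 stood at or above the detection filter on all 12 arrays. C5ar1 was below the filter. C4b lay only on a probe set shared with another symbol, and C3 and Cfd, which had no probe set carrying their symbol, were not analysed here.

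Livers of 12 male mice aged 6 to 12 weeks were taken at Zeitgeber time (ZT) 14, that is 14 h after lights on in a cycle of 12 h light and 12 h dark, with 3 mice in each of 4 groups. The first group was PPARα-null mice fed bezafibrate, which carry the PPARalphatm1Gonz/J allele; that line is 129S4SvJae-derived and had been crossed with Jcl:ICR mice. The second was Clk/Clk mutant mice on the Jcl:ICR background fed bezafibrate. Wild-type Jcl:ICR mice fed bezafibrate formed the third group, and untreated wild-type Jcl:ICR mice on the same diet without the drug formed the fourth. Bezafibrate, a fibrate drug that activates the lipid-sensing nuclear receptor PPARα, was given at 0.5% (w/w) of the diet for 5 days. No mutant was left untreated, so a difference of genotype and a difference in the response to the drug cannot be told apart, and the null mice differ from the others in strain background too. Both mutations are present in every cell of the animal, not in hepatocytes alone.

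Complement is a cascade of plasma proteins that marks microbes and damaged cells and can punch holes in their membranes. The classical pathway starts with C1q bound to antibody, the lectin pathway with sugar-binding proteins that carry the MASP proteases, and the alternative pathway with C3 and factor B. All meet at the cleavage of C3 and then of C5, after which the terminal components assemble the membrane attack complex. Hepatocytes make most of the circulating components, whereas C1q is made mainly by macrophages, in liver the Kupffer cells.

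Expression is given for each probe set as a log2 value, on a scale that ran from 2.25 to 15.0 over all arrays; a step of 1 is a doubling. Array medians lay between 5.45 and 5.50, and arrays of the same group correlated across probe sets at 0.993 to 0.996, against 0.969 to 0.990 between groups. The hepatocyte markers Alb, Ttr and Apoa1 stood near the top of the scale in every mouse. Ppara averaged 9.88 ± 0.16 in PPARα-null livers, 10.37 ± 0.08 in Clk/Clk livers, 10.78 ± 0.23 in treated wild-type livers and 11.56 ± 0.25 in untreated wild-type livers (SD, n = 3 each). Clock averaged 7.82 ± 0.20, 9.25 ± 0.16, 8.17 ± 0.28 and 7.81 ± 0.21 in the same groups. Whether either probe set covers the altered exons is unknown here, so the values check neither genotype. A gene was called when limma's moderated test gave a Benjamini-Hochberg adjusted p under 0.05 over all 13598 genes and the difference was at least 1.5-fold. All p-values below are of this kind.

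In treated against untreated wild-type livers, 18 of the 28 tested complement genes fell and 0 rose, where 7.77% of all genes tested fell and 12.8% rose. Their median difference was -0.87 on the log2 scale, beside 0.01 for all genes. In PPARα-null against wild-type livers, both on bezafibrate, 15 of the 28 were higher and 0 were lower, beside 5.35% higher and 8.09% lower of all genes, with a median of 0.65 beside 0.01. In Clk/Clk against wild-type livers, both on bezafibrate, 1 was higher and 6 were lower, beside 2.64% and 6.49% of all genes, with a median of -0.40 beside 0.02. These 3 comparisons share the treated wild-type arrays, so their calls are not independent of each other. Complement genes higher with treatment in wild type numbered 1 at an unadjusted p under 0.05 in limma. Those lower in PPARα-null than in treated wild-type livers numbered 2. The share of all genes at this unadjusted threshold was not counted. In bulk liver, fewer cells of a type and less RNA per cell cannot be told apart.

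**Figure D1:**
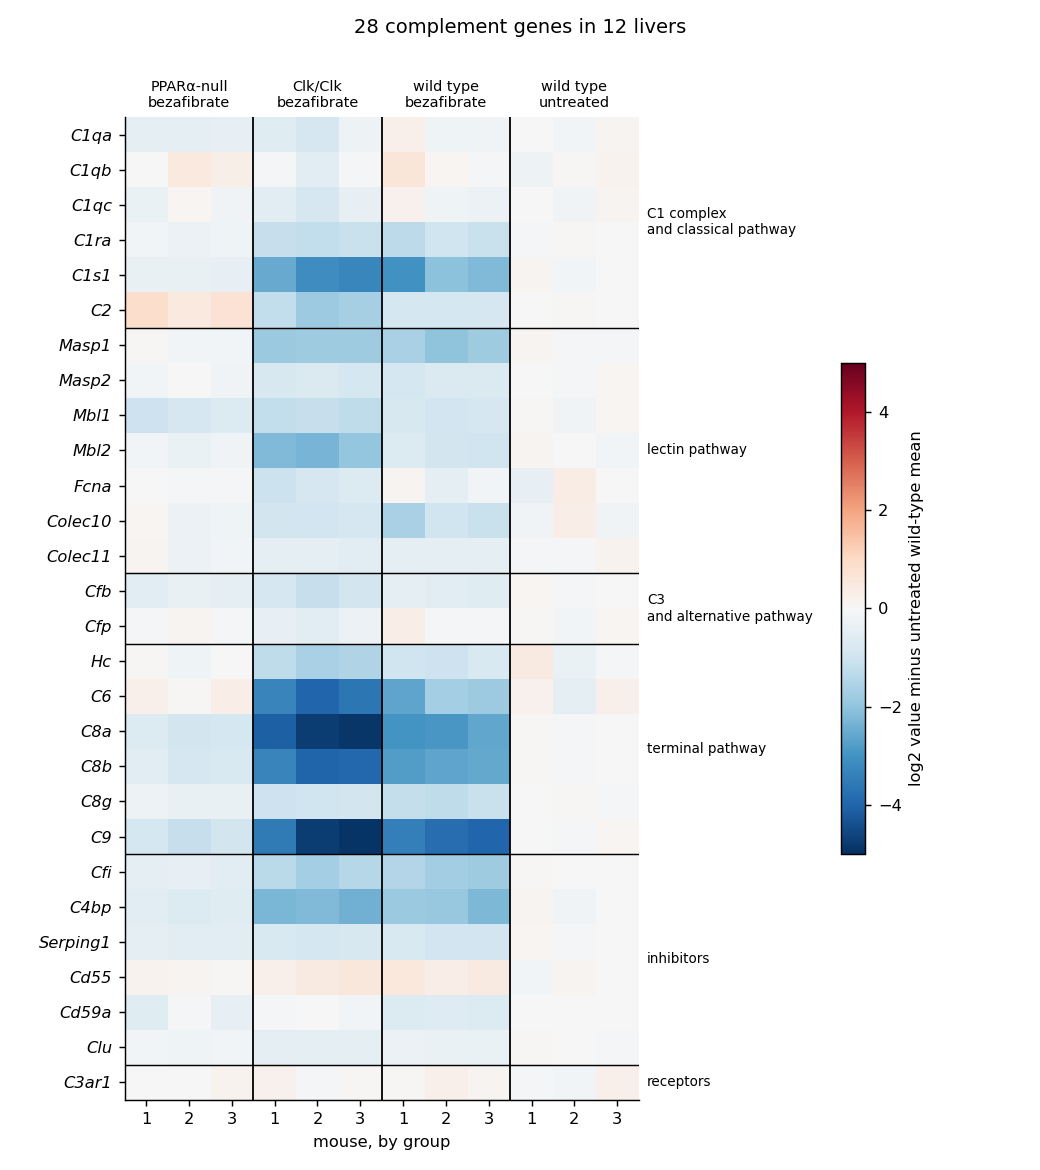
Log2 difference of each mouse from the mean of the untreated wild-type mice, for the 28 tested complement genes (rows, by role) in 12 mice (columns, 3 per group), with colour from -5 to 5. The darkest blue cells are C8a and C9 in Clk/Clk mice 2 and 3, and the C1q rows stay pale in all columns.

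The mutants on bezafibrate were also set against untreated wild type. In PPARα-null livers on the drug, 1 complement gene was higher and 5 were lower than in untreated wild type, beside 3.96% and 2.69% of all genes, with a median of -0.19. In Clk/Clk livers on the drug, 0 were higher and 19 were lower, beside 10.6% and 8.82% of all genes, with a median of -0.98. Set directly against each other, Clk/Clk livers had 0 higher and 16 lower than PPARα-null livers, beside 7.43% and 7.78% of all genes, with a median of -0.72. The mean log2 value over the 18 tested hepatocyte-made genes was 12.00 to 12.11 in PPARα-null mice, 10.25 to 10.55 in Clk/Clk mice, 10.84 to 10.89 in treated wild-type mice and 12.30 to 12.49 in untreated wild-type mice, with no overlap between groups.

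Genes were split by the cell that makes the protein, taken from general knowledge and not measured here. Of 18 tested genes made by hepatocytes, 16 fell and 0 rose in treated against untreated wild type, with a median of -1.16. Clu and Cfb were the remaining 2, at -0.32 and -0.54, both under the fold minimum with adjusted p = 8.39e-04 and 3.88e-04. Of 4 tested genes made by macrophages, the 3 C1q chains and C3ar1, 0 were called in either direction, and their differences lay between -0.09 and 0.21. Among 6 genes of other or mixed sources, 2 fell, Colec10 and Cd59a. In PPARα-null against treated wild-type livers 14 of the 18 hepatocyte-made genes were higher, with a median of 1.04 and with Masp1 among them on 1 of its 4 kept probe sets, and 0 of the 4 macrophage-made genes were called, with a median of -0.07. In Clk/Clk against treated wild-type livers the medians were -0.40 for the hepatocyte-made genes, of which 5 were lower, and -0.46 for the macrophage-made genes, of which 0 were called. Fcna, filed under other or mixed sources although macrophages are a known source of it, was called lower in that comparison, at -0.72 (adjusted p = 0.0202), so a macrophage group that held it would have 1 call. At an unadjusted p under 0.05 in limma, 0 of the 4 macrophage-made genes differed with treatment in wild type. At that threshold 1 was lower in PPARα-null and 3 were lower in Clk/Clk than in treated wild-type livers. The share of all genes there was not counted. The difference between the source groups was not tested.

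**Figure D2:**
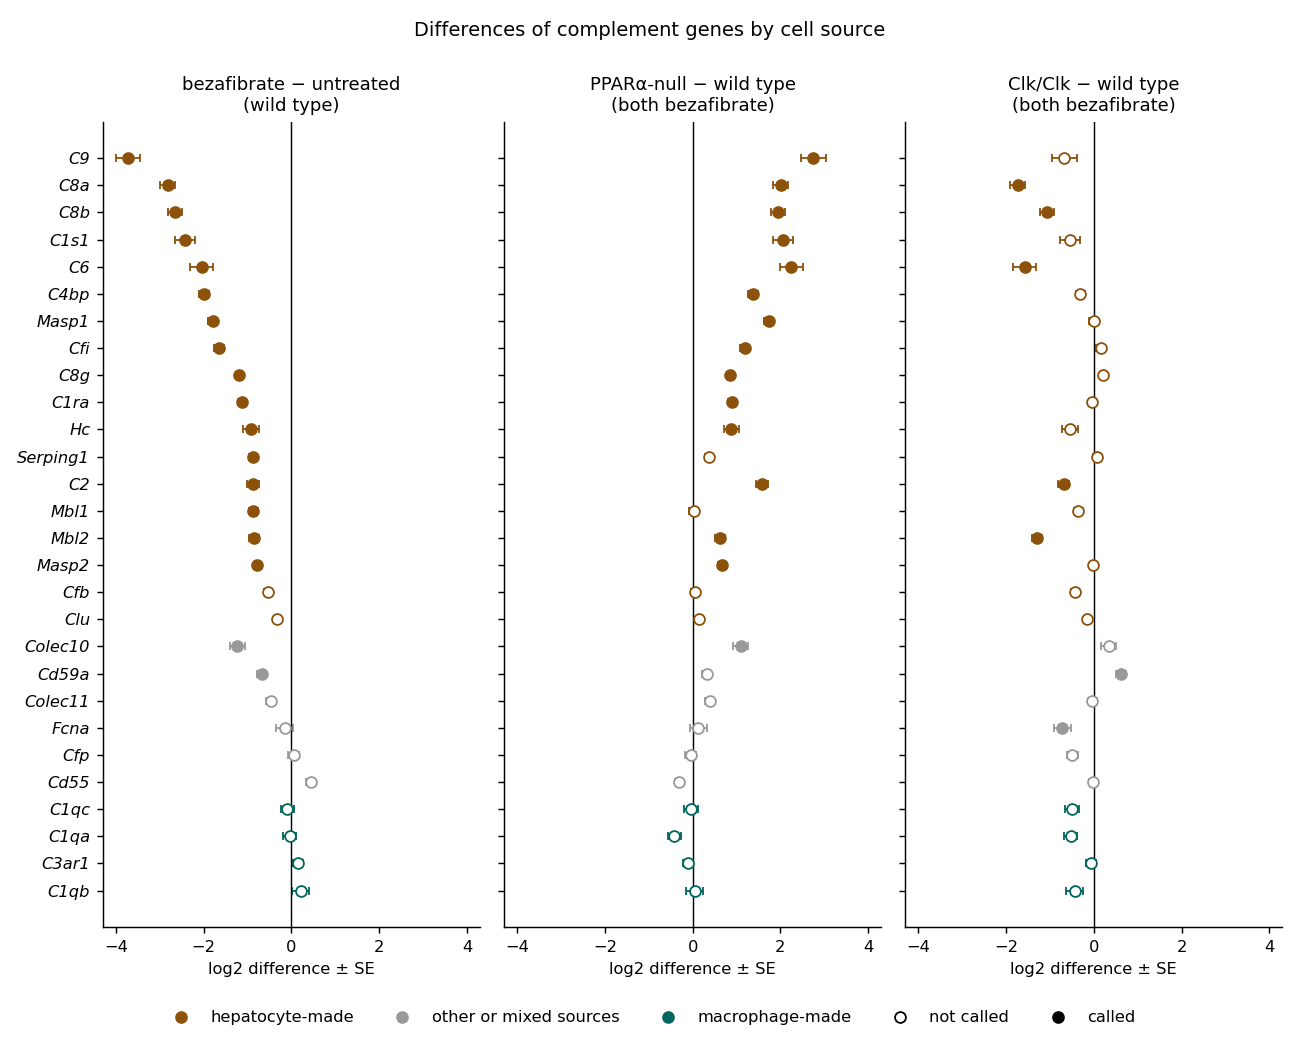
Log2 difference of each tested complement gene (points, with bars of 1 SE, filled where called) in the 3 comparisons that hold treated wild type, by whether hepatocytes, macrophages or other cells make the protein. With bezafibrate in wild type, hepatocyte-made genes run from -3.73 to -0.32, while the 4 macrophage-made genes lie between -0.09 and 0.21.

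Of the role groups, the terminal components had the largest median differences in these 3 comparisons, with a median of -0.88 in Clk/Clk against treated wild-type livers. All 6 tested genes fell in treated against untreated wild type, with a median of -2.35, and all 6 were higher in PPARα-null than in treated wild-type livers, with a median of 1.97. C9 encodes the subunit that polymerises into the pore. It had 12.84, 12.56 and 12.78 in PPARα-null livers, 10.15, 8.97 and 8.79 in Clk/Clk livers, 10.29, 9.89 and 9.76 in treated wild-type livers and 13.70, 13.61 and 13.80 in untreated wild-type livers. Treated wild-type values lay far below both untreated wild-type and PPARα-null values without overlap, while Clk/Clk mouse 1 reached into the treated wild-type range. C9 fell by 3.73 with treatment in wild type (SE 0.28, 13.2-fold, adjusted p = 1.28e-06) and was 2.75 higher in PPARα-null than in treated wild-type livers (adjusted p = 2.61e-05). The Clk/Clk difference of -0.68 was not called (adjusted p = 0.105), but without Clk/Clk mouse 1 it was -1.10 and called (adjusted p = 0.00123).

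C8a and C8b encode the alpha and beta chains of C8, which inserts into the membrane and recruits C9. C8a had 12.87, 12.65 and 12.69 in PPARα-null livers, 9.48, 8.83 and 8.70 in Clk/Clk livers, 10.58, 10.66 and 10.97 in treated wild-type livers and 13.61, 13.49 and 13.58 in untreated wild-type livers. The 4 groups did not overlap for this gene, with Clk/Clk at the bottom. C8a fell by 2.83 with treatment in wild type (SE 0.17, adjusted p = 2.79e-07) and was 4.01-fold higher in PPARα-null than in treated wild-type livers (adjusted p = 7.24e-06). It stood at -1.73 in Clk/Clk against treated wild-type livers (adjusted p = 1.04e-04). Against untreated wild type, Clk/Clk livers on the drug stood at -4.56, which is 23.5-fold lower (adjusted p = 8.78e-09). C8b had 11.20, 10.91 and 10.96 in PPARα-null livers, 8.45, 7.75 and 7.82 in Clk/Clk livers, 8.94, 9.11 and 9.19 in treated wild-type livers and 11.79, 11.65 and 11.76 in untreated wild-type livers. Its groups did not overlap either, and the differences were -2.65 with treatment in wild type, 1.94 in PPARα-null and -1.08 in Clk/Clk livers against treated wild type (adjusted p = 2.46e-07, 5.11e-06 and 9.06e-04).

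C6, which binds C5b and starts the complex, had 11.13, 10.94 and 11.21 in PPARα-null livers, 7.60, 6.94 and 7.26 in Clk/Clk livers, 8.27, 9.17 and 9.09 in treated wild-type livers and 11.12, 10.39 and 11.16 in untreated wild-type livers. PPARα-null and untreated wild-type mice shared a range, and every Clk/Clk mouse was below every treated wild-type mouse. C6 fell by 2.05 with treatment in wild type (adjusted p = 7.05e-05). Against treated wild-type livers it was 2.25 higher in PPARα-null livers (adjusted p = 6.93e-05) and at -1.57 in Clk/Clk livers (adjusted p = 0.0017). C8g encodes the gamma chain of C8, a lipocalin. It had 13.06, 12.96 and 12.92 in PPARα-null livers, 12.29, 12.30 and 12.37 in Clk/Clk livers, 12.11, 12.06 and 12.19 in treated wild-type livers and 13.34, 13.35 and 13.23 in untreated wild-type livers. It fell by 1.19 with treatment in wild type (adjusted p = 1.65e-07), and the Clk/Clk difference against treated wild type was 0.20 and not called (adjusted p = 0.0521). Hc, the mouse gene for C5, had 12.87, 12.60 and 12.80 in PPARα-null livers, 11.53, 11.16 and 11.28 in Clk/Clk livers, 11.80, 11.77 and 12.04 in treated wild-type livers and 13.25, 12.46 and 12.69 in untreated wild-type livers. Treated wild type again lay below untreated wild type without overlap, at -0.93 (adjusted p = 0.00116). In Clk/Clk livers Hc was at -0.55 against treated wild type, under the fold minimum (adjusted p = 0.0437), and at -0.65 and called without Clk/Clk mouse 1 (adjusted p = 0.0414).

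In PPARα-null livers on the drug against untreated wild type, C8a, C8b and C9 were lower, at -0.82, -0.71 and -0.98 (adjusted p = 0.00705, 0.0096 and 0.0301). The C9 call was lost when any of the 6 mice compared was left out, with adjusted p between 0.0535 and 0.0956. Hc and C6 gave -0.04 and 0.20 there and were not called. C8g gave -0.33, under the fold minimum.

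**Figure D3:**
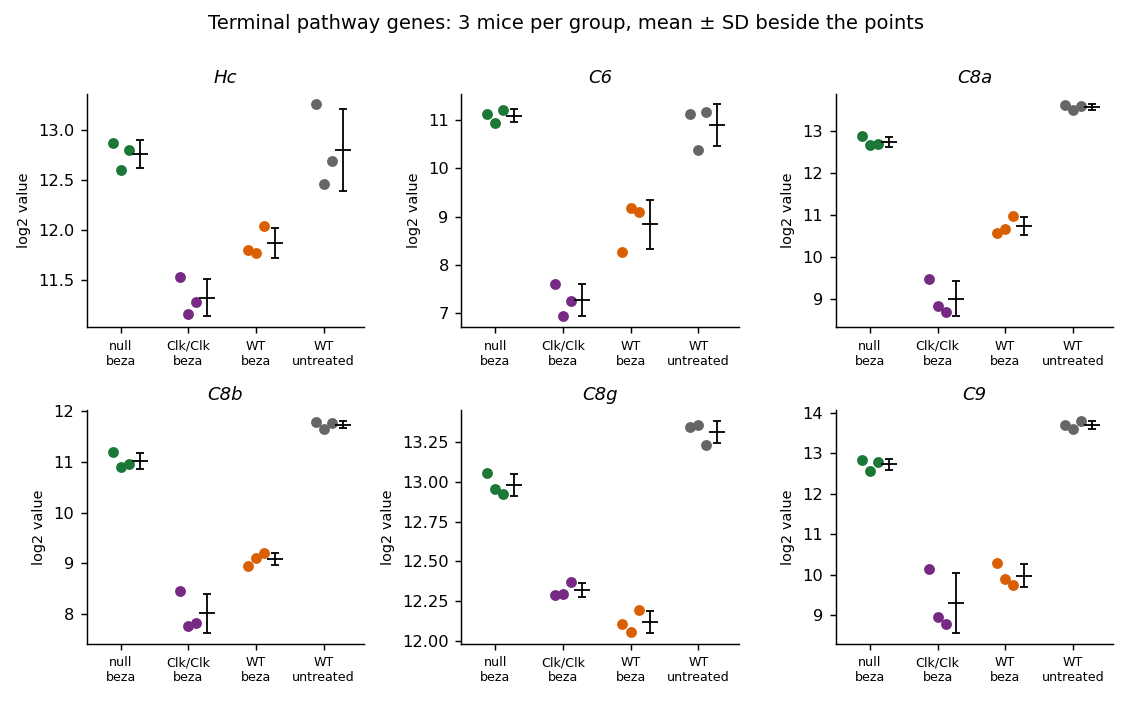
Log2 expression of the 6 terminal pathway genes in each mouse (points) with the group mean ± SD beside them, for PPARα-null (null), Clk/Clk and wild-type (WT) livers on bezafibrate (beza) and untreated wild-type livers. C6, C8a, C8b and C9 span the widest ranges, with C9 between 8.79 and 13.80.

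The promoter windows of 4 genes are shown because C8a and C8b lie next to each other on chromosome 4 and move together, C9 moves most with the drug in wild type, and Masp2 is the single member whose window held a match to the PPAR-type repeat searched for. The windows cover 250 bases before to 50 after the RefSeq gene start (GRCm38.p6), written 5′ to 3′ on the gene's strand: C8a at chr4:104876349-104876648 on the minus strand, C8b at chr4:104766067-104766366 on the plus strand, C9 at chr15:6445096-6445395 on the plus strand and Masp2 at chr4:148602294-148602593 on the plus strand. Capitals mark motif matches.
C8a: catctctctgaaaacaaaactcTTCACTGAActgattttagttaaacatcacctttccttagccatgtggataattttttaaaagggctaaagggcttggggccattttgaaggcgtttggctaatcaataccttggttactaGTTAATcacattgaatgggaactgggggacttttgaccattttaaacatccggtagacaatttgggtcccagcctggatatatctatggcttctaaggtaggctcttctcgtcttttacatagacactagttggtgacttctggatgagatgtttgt
C8b: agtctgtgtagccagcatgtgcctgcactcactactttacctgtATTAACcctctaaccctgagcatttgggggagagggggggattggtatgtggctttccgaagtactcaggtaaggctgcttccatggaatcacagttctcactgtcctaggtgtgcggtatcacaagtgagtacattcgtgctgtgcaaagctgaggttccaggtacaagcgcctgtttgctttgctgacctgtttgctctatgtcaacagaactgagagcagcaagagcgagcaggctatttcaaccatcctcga
C9: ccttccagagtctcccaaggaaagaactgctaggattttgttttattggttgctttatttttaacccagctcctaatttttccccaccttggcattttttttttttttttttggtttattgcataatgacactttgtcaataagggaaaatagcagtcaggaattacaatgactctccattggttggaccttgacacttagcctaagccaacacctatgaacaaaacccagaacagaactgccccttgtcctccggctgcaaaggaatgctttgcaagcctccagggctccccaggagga
Masp2: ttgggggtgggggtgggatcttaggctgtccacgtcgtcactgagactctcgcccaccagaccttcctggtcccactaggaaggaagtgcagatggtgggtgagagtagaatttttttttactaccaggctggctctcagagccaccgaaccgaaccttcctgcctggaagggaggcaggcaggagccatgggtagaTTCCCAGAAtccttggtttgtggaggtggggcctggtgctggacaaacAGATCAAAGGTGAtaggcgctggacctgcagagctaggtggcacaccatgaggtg
Motifs were searched on both strands in the windows of 27025 genes, of which 23 were complement members. A direct repeat of AGGTCA spaced by 1 base, with up to 2 mismatches, was in 3.81% of all windows and in 1 member window, Masp2. The HNF1 half-site GTTAAT was in 7.2% of all windows and in 7 member windows, those of C1ra, C4bp, C8a, C8b, Cd55, Cfp and Hc. The STAT site TTCNNNGAA was in 8.47% of all windows and in 4 member windows, those of C1ra, C8a, Colec11 and Masp2. The E-box CACGTG, in 7.24% of all windows, and the C/EBP palindrome TTGCGCAA, in 0.185%, were in 0 member windows. A match is a string of letters and not a shown binding site.

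In the classical pathway, the proteases fell with the drug and the C1q chains did not pass the test. C1s1 encodes C1s, the protease that cleaves C4 and C2. It had 11.63, 11.64 and 11.57 in PPARα-null livers, 9.45, 8.88 and 8.73 in Clk/Clk livers, 8.97, 9.94 and 9.77 in treated wild-type livers and 12.11, 11.85 and 12.00 in untreated wild-type livers. Untreated wild-type mice were highest and PPARα-null mice next, with neither overlapping the other treated groups. C1s1 fell by 2.43 with treatment in wild type (SE 0.23, 5.39-fold, adjusted p = 7.25e-06) and was 2.05 higher in PPARα-null than in treated wild-type livers (adjusted p = 5.06e-05). Its Clk/Clk difference against treated wild type, -0.54, was not called (adjusted p = 0.113), but was -0.75 without Clk/Clk mouse 1 and -0.83 without treated wild-type mouse 1, both called (adjusted p = 0.0402 and 0.00893). C1ra, the neighbouring gene on chromosome 6 with 0 protein-coding genes between, encodes the protease that activates C1s. It had 11.64, 11.47 and 11.54 in PPARα-null livers, 10.64, 10.54 and 10.67 in Clk/Clk livers, 10.47, 10.80 and 10.67 in treated wild-type livers and 11.74, 11.85 and 11.75 in untreated wild-type livers. C1ra fell by 1.13 with treatment in wild type and was 0.90 higher in PPARα-null than in treated wild-type livers (adjusted p = 1.54e-06 and 1.71e-05), while Clk/Clk and treated wild-type values overlapped.

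C2 encodes the protease subunit of the classical C3 convertase and lies beside Cfb on chromosome 17. It had 11.22, 10.81 and 11.06 in PPARα-null livers, 9.10, 8.52 and 8.68 in Clk/Clk livers, 9.46, 9.44 and 9.47 in treated wild-type livers and 10.30, 10.39 and 10.30 in untreated wild-type livers. Here PPARα-null mice stood above untreated wild-type mice, a difference of 0.70 (adjusted p = 0.00441), the single complement gene called higher in that comparison. With the mean of the 3 probe sets of C2 it was 0.56, and with its probe set that bears no suffix for shared probes 0.50, both under the fold minimum. C2 fell by 0.87 with treatment in wild type (adjusted p = 2.76e-04), was 1.57 higher in PPARα-null than in treated wild-type livers (adjusted p = 6.79e-06). The Clk/Clk difference against treated wild type was -0.69 (adjusted p = 0.00407), and -0.57, under the fold minimum, without Clk/Clk mouse 2.

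C1qa, C1qb and C1qc encode the chains of C1q and lie side by side on chromosome 4. C1qa had 9.01, 9.03 and 9.08 in PPARα-null livers, 8.89, 8.65 and 9.26 in Clk/Clk livers, 9.75, 9.29 and 9.34 in treated wild-type livers and 9.49, 9.37 and 9.64 in untreated wild-type livers. Treated and untreated wild-type mice overlapped, and all 3 Clk/Clk mice were below all 3 treated wild-type mice. All 3 PPARα-null mice were below every treated and every untreated wild-type mouse too. Those differences were -0.42 and -0.46 and were not called (adjusted p = 0.0535 and 0.0533). C1qb ran from 9.31 to 9.82 in PPARα-null, 8.81 to 9.27 in Clk/Clk, 9.29 to 9.93 in treated wild-type and 9.09 to 9.53 in untreated wild-type livers. C1qc ran from 8.37 to 8.80, 7.86 to 8.29, 8.41 to 8.90 and 8.53 to 8.82 in the same groups. In C1qb and C1qc too every Clk/Clk mouse was below every treated wild-type mouse. Unlike in C1qa, PPARα-null mice overlapped untreated wild-type mice in C1qb and C1qc, as did treated wild-type mice. In Clk/Clk against treated wild-type livers the differences were -0.53 for C1qa, -0.44 for C1qb and -0.49 for C1qc (adjusted p = 0.0279, 0.123 and 0.0414), all under the fold minimum. C1qa was called at -0.69 without Clk/Clk mouse 3, at -0.61 without treated wild-type mouse 2 and at -0.59 without treated wild-type mouse 3. The other 2 probe sets of C1qb gave -0.10 and -0.42 in that comparison. Against untreated wild type, Clk/Clk livers on the drug stood at -0.57 for C1qa, -0.23 for C1qb and -0.58 for C1qc. All were under the fold minimum (adjusted p = 0.0103, 0.362 and 0.0102). C1qa and C1qc were called there with array weights, with quantile normalization and in some fits without 1 mouse.

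Of 15 tested Kupffer cell and macrophage markers, 7 were lower and 0 higher in Clk/Clk than in treated wild-type livers. Of all genes, 6.49% were lower and 2.64% higher there, and the median of the 15 markers was -0.71. Among them Clec4f and Cd5l, made mainly by Kupffer cells in liver, were at -0.85 and -0.82 (adjusted p = 6.42e-04 and 0.00358). The summed level of the 15 markers was 12.26 to 12.69 in Clk/Clk livers and 12.83 to 13.53 in treated wild-type livers on the log2 scale, and their lowest group mean, that of Ms4a7, was 5.43, so all 15 stood above the filter. Treated wild-type mouse 1 stood apart at 13.53, beside 13.01 and 12.83 in the other treated wild-type mice, and it also had the highest value of each C1q chain in its group. Without it, 5 of the 15 markers were lower in Clk/Clk livers, with a median of -0.48, and the differences of C1qa, C1qb and C1qc were -0.38, -0.25 and -0.34, none of them called (adjusted p = 0.0962, 0.378 and 0.141). The part of the markers in the C1q values was not tested. In treated against untreated wild type, 2 of the 15 rose and 0 fell, beside 12.8% and 7.77% of all genes. The share of markers that rose was thus near that of all genes. Cd14 rose by 2.53 and Cd68 by 0.90 (adjusted p = 4.32e-06 and 0.00215). Summed levels were 12.83 to 13.53 in treated and 12.67 to 12.86 in untreated wild-type livers. Without treated wild-type mouse 3, 4 rose and 0 fell, and without untreated wild-type mouse 1, 4 rose and 1 fell. In PPARα-null against treated wild-type livers 4 of the 15 were lower, Cd14, Cd68, Marco and Lyz2, beside 8.09% of all genes. Without treated wild-type mouse 1 only Cd14 was lower, with Cd68 at -0.47, Marco at -0.70 and Lyz2 at -0.53 (adjusted p = 0.0519, 0.0974 and 0.139). The calls of Marco and Lyz2 were lost when any of the 6 mice compared was left out, except for treated wild-type mouse 3, without which 6 of the 15 were lower. The summed level in PPARα-null livers was 12.95 to 12.97. C3ar1, the receptor for the C3a fragment, had 5.77, 5.72 and 5.92 in PPARα-null livers, 5.98, 5.72 and 5.81 in Clk/Clk livers, 5.81, 6.02 and 5.88 in treated wild-type livers and 5.67, 5.60 and 6.00 in untreated wild-type livers. The groups overlapped and it was called in 0 of the comparisons. C5ar1, the receptor for C5a, had values from 4.39 to 4.88 and was not tested.

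**Figure D4:**
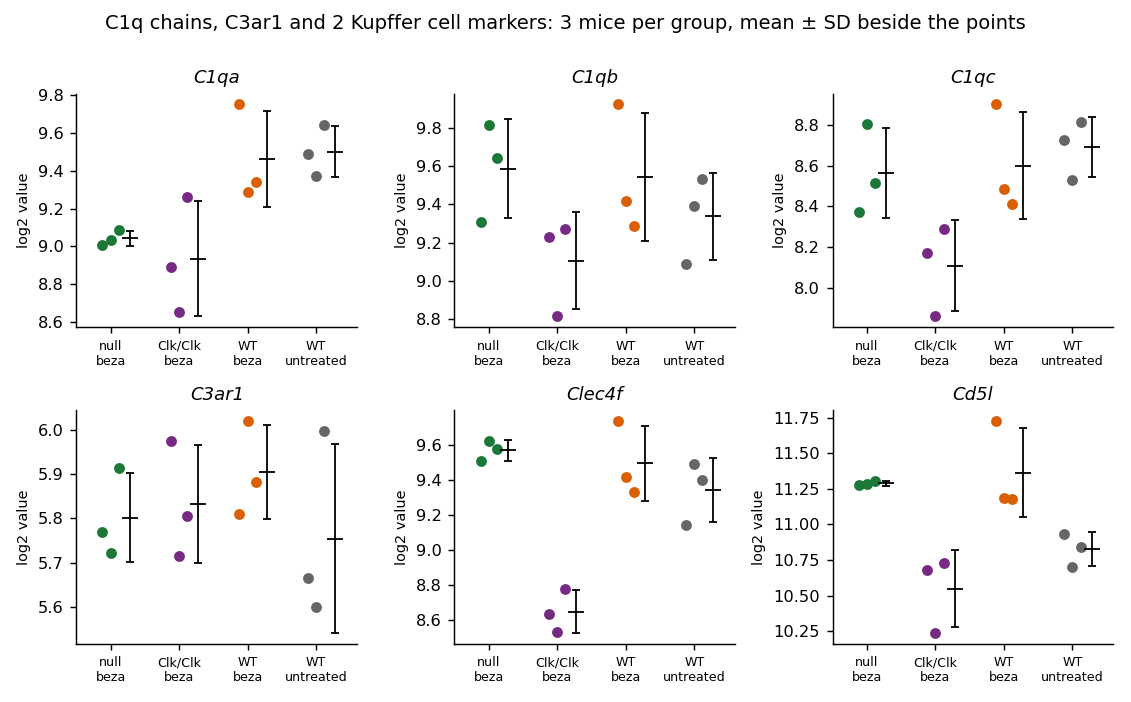
Log2 expression of the 4 macrophage-made complement genes and of the Kupffer cell markers Clec4f and Cd5l in each mouse (points), with the group mean ± SD, for PPARα-null, Clk/Clk and wild-type livers on bezafibrate and untreated wild-type livers. C1qa in Clk/Clk mice, 8.65 to 9.26, lies below treated wild-type mice, 9.29 to 9.75, and treated and untreated wild-type mice overlap.

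In the lectin pathway, 5 of 7 tested genes fell with treatment in wild type, with a median of -0.85, and 4 were higher in PPARα-null than in treated wild-type livers. Mbl2 encodes mannose-binding lectin C, a sugar-binding protein that starts the pathway. It had 13.09, 12.89 and 13.03 in PPARα-null livers, 11.02, 10.91 and 11.28 in Clk/Clk livers, 12.56, 12.32 and 12.24 in treated wild-type livers and 13.34, 13.22 and 13.10 in untreated wild-type livers. All 4 groups were separate in this gene, and Clk/Clk mice were lowest. Mbl2 fell by 0.85 with treatment in wild type (adjusted p = 9.82e-05) and stood at -1.30 in Clk/Clk against treated wild-type livers (SE 0.11, 2.47-fold, adjusted p = 4.88e-05). In PPARα-null against treated wild-type livers it was 0.63 higher (adjusted p = 0.00142), but 0.57 and under the fold minimum without treated wild-type mouse 3. Mbl1, for mannose-binding lectin A, had 11.03, 11.23 and 11.37 in PPARα-null livers, 10.82, 10.90 and 10.79 in Clk/Clk livers, 11.26, 11.09 and 11.21 in treated wild-type livers and 12.13, 11.89 and 12.15 in untreated wild-type livers. All treated groups were below untreated wild type. Mbl1 differed by 0.03 between PPARα-null and treated wild-type livers (adjusted p = 0.87), and was lower in PPARα-null than in untreated wild-type livers, at -0.84 (adjusted p = 2.56e-04). The difference between Mbl1 and Mbl2 was not tested.

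Masp1 encodes a protease carried by the lectins. It had 11.29, 11.10 and 11.10 in PPARα-null livers, 9.38, 9.45 and 9.46 in Clk/Clk livers, 9.62, 9.23 and 9.45 in treated wild-type livers and 11.37, 11.16 and 11.17 in untreated wild-type livers. PPARα-null mice overlapped untreated wild-type mice, and Clk/Clk mice overlapped treated wild-type mice. Masp1 fell by 1.80 with treatment in wild type and was 1.73 higher in PPARα-null than in treated wild-type livers (adjusted p = 1.52e-07 and 4.46e-07). The other 3 kept probe sets of Masp1 gave differences of -0.45, -0.62 and -0.73 with treatment and -0.08, 0.17 and -0.08 in PPARα-null against treated wild-type livers. The size and the call of the rise in PPARα-null livers therefore rest on the brightest probe set, since the others gave 0.17 at most. The mean of probe sets gave 0.43, not called, and left 14 complement genes higher in that comparison in place of 15. Masp2, the protease that cleaves C4 and C2, had 10.33, 10.45 and 10.31 in PPARα-null livers, 9.70, 9.76 and 9.61 in Clk/Clk livers, 9.59, 9.75 and 9.77 in treated wild-type livers and 10.50, 10.39 and 10.57 in untreated wild-type livers. It fell by 0.78 with treatment in wild type (adjusted p = 1.16e-05). The Clk/Clk difference from treated wild type was -0.02, while its second probe set gave 0.62 (adjusted p = 0.00433). Masp2 was called lower in Clk/Clk than in untreated wild-type and PPARα-null livers, at -0.80 and -0.68. Its second probe set gave -0.04 and -0.18 there, and the mean of probe sets -0.42 and -0.43, not called. Both calls therefore rest on the brightest probe set.

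Fcna, filed here under other or mixed sources, encodes ficolin A, a lectin for which macrophages are a known source. It had 9.34, 9.26 and 9.26 in PPARα-null livers, 8.25, 8.45 and 8.62 in Clk/Clk livers, 9.46, 8.84 and 9.16 in treated wild-type livers and 8.89, 9.70 and 9.34 in untreated wild-type livers. Clk/Clk mice were the lowest without overlap, at -0.72 against treated wild-type mice (adjusted p = 0.0202). That call was lost without Clk/Clk mouse 1 (-0.62, adjusted p = 0.0703), Clk/Clk mouse 2 (-0.72, adjusted p = 0.0526) or treated wild-type mouse 1 (-0.56, adjusted p = 0.073). Colec10, for collectin liver 1, had 9.20, 8.81 and 8.91 in PPARα-null livers, 8.21, 8.17 and 8.28 in Clk/Clk livers, 7.51 to 8.13 in treated wild-type livers and 8.96, 9.44 and 8.96 in untreated wild-type livers. It fell by 1.24 with treatment in wild type (adjusted p = 1.18e-04) and was 1.09 higher in PPARα-null than in treated wild-type livers (adjusted p = 5.18e-04). Every Clk/Clk mouse was above every treated wild-type mouse in this gene, at 0.34, but the difference was not called (adjusted p = 0.169). Colec11, for collectin kidney 1, gave -0.47 and 0.38 in those comparisons, both under the fold minimum.

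**Figure D5:**
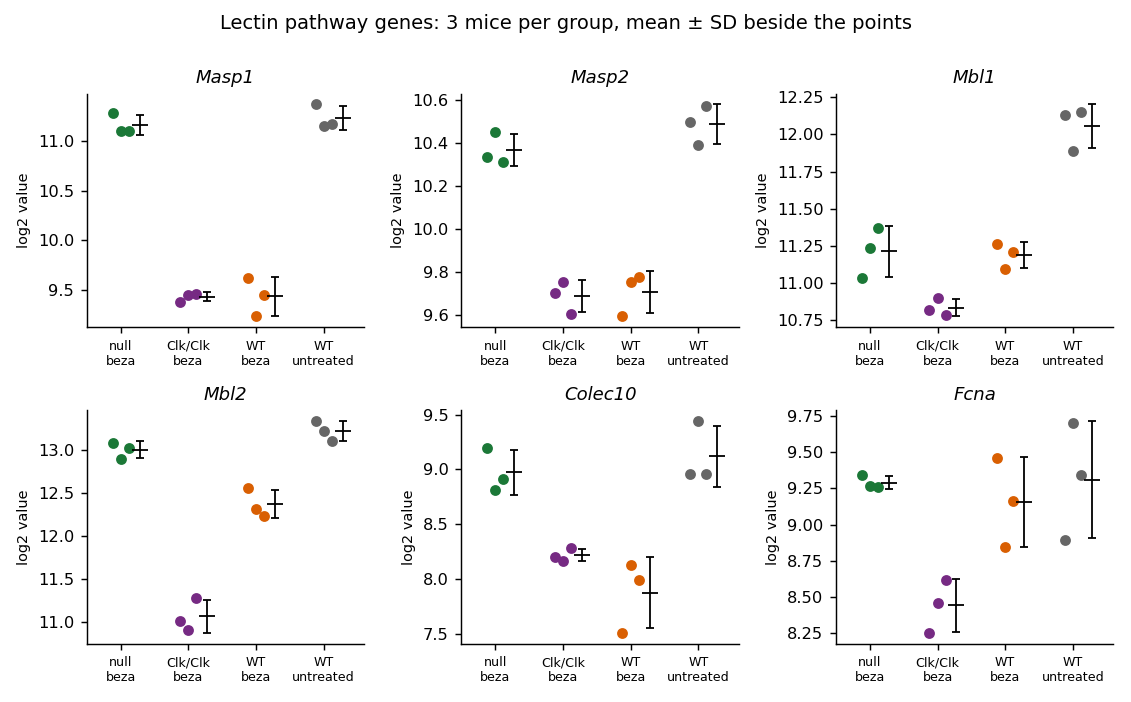
Log2 expression of 6 of the 7 lectin pathway genes, all but Colec11, in each mouse (points) with the group mean ± SD, for PPARα-null, Clk/Clk and wild-type livers on bezafibrate and untreated wild-type livers. Mbl2 is lowest in Clk/Clk mice, 10.91 to 11.28, and Masp1 in Clk/Clk and treated wild-type mice lies between 9.23 and 9.62.

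Of the 4 alternative pathway genes listed, Cfb and Cfp were tested. Cfb, for factor B, had 11.72, 11.91 and 11.82 in PPARα-null livers, 11.44, 11.15 and 11.37 in Clk/Clk livers, 11.84, 11.73 and 11.70 in treated wild-type livers and 12.38, 12.23 and 12.28 in untreated wild-type livers. Every treated wild-type mouse was below every untreated wild-type mouse, at -0.54 and under the fold minimum (adjusted p = 3.88e-04). Its called difference was Clk/Clk on the drug against untreated wild type, -0.98, which is 1.97-fold lower (adjusted p = 4.49e-06). The differences of Clk/Clk and PPARα-null from treated wild type were -0.44 and 0.06. Cfp, for properdin, which stabilises the alternative convertase, had 7.91, 8.11 and 7.93 in PPARα-null livers, 7.55, 7.40 and 7.67 in Clk/Clk livers, 8.31, 7.91 and 7.87 in treated wild-type livers and 8.04, 7.83 and 8.06 in untreated wild-type livers. On this probe set Clk/Clk mice were below the other groups without overlap. The difference was -0.49 against treated wild type, under the fold minimum (adjusted p = 0.0137). The second kept probe set of Cfp gave 0.001 against treated wild type. It gave -0.24 against untreated wild type and -0.24 against PPARα-null livers.

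Of the 6 tested inhibitors, 4 fell with treatment in wild type: Cfi, C4bp, Serping1 and Cd59a. C4bp, for the binding protein that limits C4b, had 12.27, 12.14 and 12.20 in PPARα-null livers, 10.53, 10.60 and 10.44 in Clk/Clk livers, 10.98, 10.92 and 10.59 in treated wild-type livers and 12.97, 12.67 and 12.84 in untreated wild-type livers. It was 3.99-fold lower with treatment in wild type (log2 SE 0.11, adjusted p = 1.13e-07) and was 1.38 higher in PPARα-null than in treated wild-type livers (adjusted p = 3.75e-06). PPARα-null livers stayed lower than untreated wild type, at -0.62 (adjusted p = 0.0026), and at -0.55, under the fold minimum, without untreated wild-type mouse 1. Cfi, for factor I, which cleaves C3b and C4b, had 13.23, 13.32 and 13.20 in PPARα-null livers, 12.37, 12.01 and 12.28 in Clk/Clk livers, 12.27, 11.97 and 11.95 in treated wild-type livers and 13.78, 13.68 and 13.68 in untreated wild-type livers. It fell by 1.65 with treatment in wild type and was 1.19 higher in PPARα-null than in treated wild-type livers (adjusted p = 3.79e-07 and 9.09e-06). Serping1, for the C1 inhibitor, had 13.13, 13.08 and 13.03 in PPARα-null livers, 12.82, 12.73 and 12.79 in Clk/Clk livers, 12.84, 12.66 and 12.65 in treated wild-type livers and 13.69, 13.51 and 13.60 in untreated wild-type livers. It fell by 0.88 with treatment in wild type (adjusted p = 2.94e-06).

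Cd59a, for the membrane protein that blocks C9, had 10.21, 10.73 and 10.39 in PPARα-null livers, 10.75, 10.78 and 10.67 in Clk/Clk livers, 10.11, 10.14 and 10.11 in treated wild-type livers and 10.83, 10.80 and 10.77 in untreated wild-type livers. Clk/Clk mice stood near untreated wild type and above treated wild type, the single complement gene called higher in Clk/Clk livers, at 0.62 (adjusted p = 0.00203). It fell by 0.68 with treatment in wild type (adjusted p = 2.95e-04). Cd55, for decay-accelerating factor, had 6.88, 6.82 and 6.76 in PPARα-null livers, 6.96, 7.14 and 7.25 in Clk/Clk livers, 7.23, 7.03 and 7.13 in treated wild-type livers and 6.56, 6.83 and 6.70 in untreated wild-type livers. Its difference with treatment in wild type was 0.44, under the fold minimum (adjusted p = 0.00258). The other kept probe sets of Cd55 gave 0.04 and 0.51 there. In Clk/Clk against treated wild-type livers they gave -0.65 and -0.47, beside -0.02 for the brightest. Against untreated wild type, Clk/Clk livers stood at -0.61 and 0.03 on them, beside 0.42. Clu, for clusterin, ranged from 13.12 to 13.68 over the 12 mice.

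Among 10 tested other complement genes of 22 listed, 1 rose and 3 fell with treatment in wild type. The shares of all genes were 12.8% and 7.77%, so the rise was not above that of all genes. Cpn2, for a subunit of carboxypeptidase N, the enzyme that inactivates anaphylatoxins, fell by 1.68. Cfhr2, a factor H-related gene, fell by 1.46, and Vtn, for vitronectin, fell by 0.65 (adjusted p = 4.41e-07, 3.01e-06 and 1.06e-05). Cd93 rose by 1.25 (adjusted p = 0.00146). In PPARα-null against treated wild-type livers Cpn2 and Cfhr2 were 1.32 and 1.33 higher and Cd93 was at -1.31. In Clk/Clk against treated wild-type livers Cfhr2 was 1.03 higher and Itgb2, a chain of complement receptor 3, was at -0.81 (adjusted p = 2.82e-04 and 0.0352). The Itgb2 call rested on treated wild-type mouse 1, without which the difference was -0.42 and under the fold minimum, and it was also lost without any of the 3 Clk/Clk mice (adjusted p = 0.0751 to 0.0867).

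Of 9 tested regulators of hepatocyte genes, 6 fell and 0 rose with treatment in wild type, beside 7.77% and 12.8% of all genes. Il6ra, for the interleukin 6 receptor that signals to STAT3, had 9.07, 9.16 and 8.21 in PPARα-null livers, 7.36, 7.94 and 7.75 in Clk/Clk livers, 6.47, 6.33 and 6.20 in treated wild-type livers and 10.10, 10.21 and 9.92 in untreated wild-type livers. No groups overlapped. It fell by 3.75 with treatment in wild type (adjusted p = 2.22e-07) and was 2.48 higher in PPARα-null and 1.35 higher in Clk/Clk than in treated wild-type livers (adjusted p = 9.43e-06 and 0.00158). Cebpa, a hepatocyte transcription factor, fell by 1.21 and was 0.93 higher in PPARα-null than in treated wild-type livers. Socs3, Stat3, Hnf4a and Nr1h4 fell by 1.11, 0.84, 0.69 and 0.66 with treatment in wild type. Socs3 was not called when treated wild-type mouse 3 was left out (-0.92, adjusted p = 0.0621), nor without untreated wild-type mouse 2 (-0.85, adjusted p = 0.0708).

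Other secreted liver proteins were counted in the same way. With treatment in wild type, 7.77% of all genes fell and 12.8% rose. Against treated wild-type livers, 5.35% of all genes were higher in PPARα-null and 2.64% in Clk/Clk livers. Of 17 coagulation factors, all tested, 12 fell and 0 rose with treatment in wild type, with a median of -0.73, and 10 were higher in PPARα-null than in treated wild-type livers, with a median of 0.63. In Clk/Clk against treated wild-type livers 0 of the 17 were called, with a median of 0.12. At an unadjusted p under 0.05 in limma 5 were higher and 0 lower, and the share of all genes at that threshold was not counted. Fga was called at 0.61 without Clk/Clk mouse 2 and at 0.64 without treated wild-type mouse 1. Factor F11 and prekallikrein Klkb1 were among the lowest with treatment, at -3.22 and -1.74 (adjusted p = 1.91e-07 and 8.51e-08). Of 18 tested other plasma proteins, 6 fell with treatment, with a median of -0.40, 4 were higher in PPARα-null livers and 1, Itih3, was higher in Clk/Clk livers, at 0.60. The Itih3 difference was 0.58 without Clk/Clk mouse 3 and 0.55 without treated wild-type mouse 1, both under the fold minimum. Itih4 fell by 2.31 with treatment and was 1.90 higher in PPARα-null than in treated wild-type livers (adjusted p = 2.39e-05 and 1.94e-04). Of 9 tested hepatocyte markers, 4 fell and 0 rose with treatment in wild type, with a median of -0.42. Among those that fell were Cps1 at -1.24, Tat at -1.64 and Hnf4a, which was also counted among the regulators. The other 5 were not called, among them Alb, with means of 14.84 in treated and 14.86 in untreated wild-type livers.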

How the data were processed

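For each probe set the authors deposited a log2 expression value, from Affymetrix arrays hybridised with biotin-labelled RNA made from 250 ng of total RNA per liver, per the labels. The authors used RMA, per the submitters' processing notes, with version and settings not given in the sources used here. RMA aligns the arrays to each other, so differences are relative to the bulk of genes, and very bright probe sets can be compressed. Of 45101 probe sets, 64 were array controls; 34945 had exactly 1 gene symbol in the platform annotation, 932 several and 9160 none. Symbols were matched through RefSeq (GRCm38.p6), with 204 unmatched and 0 changed.

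Probe sets were kept at or above the 40th percentile of their array (4.87 to 4.92) on at least 3 arrays. The fit used limma 3.58.1 in R 4.3.3 (lmFit, eBayes) with 4 group means and 8 residual degrees of freedom, and was tested on simulated data. All differences are the first-named group minus the second on the log2 scale. Arrays have no read depth, and their number limits the precision. The labels name no array batch or date.

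The complement members, role groups, gene lists and motifs were chosen with earlier results of these data known, and every member was named; of the coagulation and plasma protein lists, genes were named among the 4 with the smallest adjusted p in a comparison. Alternatives covered the filter, the probe set rule, normalization, array weights, eBayes settings, the replicate block, the groups fitted, the fold minimum and leaving out each mouse, which for the other gene lists was added after seeing the data.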

Additional observations from a re-analysis of the deposited data

How the results depend on the processing

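Without the fold minimum, complement genes higher with treatment in wild type numbered 1 and all genes called 6649. In PPARα-null against treated wild-type livers 1 complement gene was then lower and 4765 genes were called in all, and in Clk/Clk against treated wild-type livers 12 were lower and 3363 were called in all. Against untreated wild type, 10 were lower in PPARα-null livers (2975 genes in all) and 1 was higher in Clk/Clk livers (6128 in all). Another 2 were higher in Clk/Clk than in PPARα-null livers (5031 in all). The totals of all genes count both directions, whereas the complement counts are of a single direction. The share of all genes in each direction was not counted without the fold minimum. Without probe sets whose names end in _x_at, _s_at or _a_at, 2 complement genes were higher in Clk/Clk than in treated wild-type livers, since Masp2 was then at 0.62, and 0 were higher in PPARα-null than in untreated wild-type livers, as also with the mean of probe sets. C1s1, C8b, C8g and Clu had only such probe sets and dropped out of that fit. Of these, C1s1, C8b and C8g were among the genes counted as lower with treatment and as higher in PPARα-null than in treated wild-type livers. Leaving out 1 mouse gave 3 to 5 complement genes lower in PPARα-null than in untreated wild-type livers, the 3 without untreated wild-type mouse 1, and 4 to 8 lower in Clk/Clk than in treated wild-type livers. The counts of 18 lower with treatment and 15 higher in PPARα-null livers came to 18 and to 14 to 15. The labels do not say whether the replicate numbers pair mice. Same-numbered mice of different groups deviated from their group means with correlations of -0.092 to 0.125 across genes, and differently numbered mice with -0.165 to 0.134. Over 0.1 lay 3 of 18 same-numbered and 2 of 36 differently numbered pairs. Such weak correlations cannot settle whether the mice were paired. The replicate block gave 18 lower with treatment, 15 higher in PPARα-null and 6 lower in Clk/Clk livers, and changed no complement call. Changes of sign that were not called in either fit were not counted. Probe sets near the filter, such as those of C3ar1, limit small differences.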

Other observations

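Markers of other liver cell types moved in part. With treatment in wild type, 7.77% of all genes fell and 12.8% rose. In Clk/Clk against treated wild-type livers, 6.49% of all genes were lower and 2.64% higher. Of 10 tested sinusoidal endothelial cell markers, 3 fell with treatment in wild type, Stab2, Clec4g and Fcgr2b, at -0.86, -0.69 and -0.65 (limma, adjusted p = 4.66e-05, 0.0031 and 0.00739). Without treated wild-type mouse 1, Clec4g and Fcgr2b were at -0.46 and -0.46, under the fold minimum, and Fcgr2b was at -0.53 without untreated wild-type mouse 2. Of 10 stellate cell markers, Col3a1 and Col1a2 were lower in Clk/Clk than in treated wild-type livers, at -1.33 and -0.79. Ecm1 was called higher there, at 0.59, and the median of the 10 was 0.04. With treatment in wild type Reln, Hand2 and Ecm1 fell by 0.99, 1.16 and 0.79. Of 4 tested lymphocyte markers Ighm was lower in Clk/Clk than in treated wild-type livers, at -1.45 (limma, adjusted p = 0.00534). Of 5 tested neutrophil and monocyte markers, 2 fell with treatment in wild type, Ccr2 by 0.74 (limma, adjusted p = 0.00118) and Ngp. Every treated wild-type mouse was below every untreated wild-type mouse in Ngp, but the treated values lay under the detection filter. S100a8 and S100a9 stood at 1.05 and 1.04 in that comparison and were not called (limma, adjusted p = 0.0882 and 0.0507). S100a9 was called at 1.24 without treated wild-type mouse 2, at 1.39 without treated wild-type mouse 3 and at 1.27 without untreated wild-type mouse 1.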
